A study of Mus musculus with 6 samples.

Results

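Imprinted genes outside the Kcnq1 domain were followed in whole ovaries of CD1 mice at postnatal day 21. They were chosen by name, as 37 genes of known imprinted domains and isolated loci, and 31 of them were found by symbol among the 16454 genes of the deposited table. Meg3, Rian, Dlk1, Rtl1, Snrpn and Magel2 were not analysed here. The ovaries came from generation 3 after dams given 20 µg/kg/day of the plasticizer DEHP, di(2-ethylhexyl) phthalate, or tocopherol-stripped corn oil as vehicle. There were 3 ovaries of the DEHP lineage and 3 of the control lineage, each sequenced alone, and the mice sampled had not been dosed themselves. All were of the outbred CD1 stock, and the labels do not say whether ovaries came from separate litters or founding dams. The p-values therefore measure only the spread between these ovaries that was left after the authors' adjustment of the values, described below.

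An imprinted gene is transcribed mainly from the copy inherited from the mother or mainly from that inherited from the father, according to DNA methylation laid down in the egg or the sperm. In the ovary the marks are erased in primordial germ cells and set anew in growing oocytes, while granulosa, theca and stromal cells keep the parental pattern they were born with. Many imprinted genes act on growth, on insulin-like growth factor signalling and on metabolism, with paternally expressed genes tending to promote growth and maternally expressed ones to restrain it. Parental assignments below are textbook knowledge and were not made in the ovary. Some, such as that of Ube3a in neurons, need not hold there. The deposited values sum both alleles and cannot show imprinting itself.

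Values were log2 CPM (read counts scaled to a common library total, on a log2 scale) from which the authors had removed a surrogate variable, an estimated nuisance direction across samples. The depth of the libraries is unknown, and the summed CPM ranged from 979868 to 1026735. Across genes, the correlation between DEHP-lineage replicates 1 and 3 was 0.998, the highest of any pair, and the removed direction had weights of -0.60 and 0.75 on them. The SD within the DEHP lineage was below that within the control lineage for 25 of the 31 genes and for 69.6% of all genes. Markers of the ovary were present: 14 oocyte genes, the zona proteins and Gdf9 among them, summed to between 1290 and 1400 CPM in the DEHP lineage and between 1450 and 1770 CPM in the control lineage.

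The gene with the largest difference was Mirg, a maternally expressed noncoding RNA whose transcript carries a cluster of microRNAs. Its gene lies at chr12:109734981-109749458 in RefSeq's annotation of GRCm38.p6, and 10 annotated hairpins with 19 mature names lie within it. The mature microRNAs were not measured. Those printed here lie within the span of the gene, introns included, and need not be part of the counted exons. Capitals mark the seed, bases 2 to 8 from the 5′ end, in sequences from RefSeq. The first pair shares its seed, and the next pair has a seed that starts with the same letters and then differs.
mmu-miR-453: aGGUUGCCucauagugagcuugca
mmu-miR-496a-5p: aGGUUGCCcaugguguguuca
mmu-miR-410-5p: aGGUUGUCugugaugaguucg
mmu-miR-409-5p: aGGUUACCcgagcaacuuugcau
A further 4, all from the 3p arms of their hairpins, have seeds different from these and from each other.
mmu-miR-154-3p: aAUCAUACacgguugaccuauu
mmu-miR-377-3p: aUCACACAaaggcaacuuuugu
mmu-miR-410-3p: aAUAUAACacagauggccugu
mmu-miR-369-3p: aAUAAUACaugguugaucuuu
Over all 19 names there were 18 different seeds.

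Promoters of the measured genes were richer in CpG than annotated promoters in general. RefSeq promoter windows of 300 bases, from 250 before to 50 after a start, were found for 25 of the 31 genes, in 37 windows. H19, Peg10, Sgce, Peg13, Trappc9 and Impact had none. The median window held 17 CpG, against 7 over all 32851 windows. Those windows belong to 27025 genes, more than the 16454 with values in the ovary, and were not matched for expression. The motif TGCCGC, which the imprint-protecting zinc finger protein ZFP57 binds when its CpG is methylated, was searched on both strands and stood in 10 of the 37 windows (27.0%), against 11.6% of all windows. The motif itself contains a CpG, and windows of alternative starts of a gene can overlap. The motif GCCATNTT, a core of YY1 sites, stood in 2 windows (5.41%), against 6.05% of all windows. The 250 bases before a start are printed for Zdbf2, whose window had 3 matches, and for Mest, with 2, since these had most matches to TGCCGC or its reverse complement GCGGCA (in capitals).
Zdbf2, chr1:63200108-63200357, plus strand: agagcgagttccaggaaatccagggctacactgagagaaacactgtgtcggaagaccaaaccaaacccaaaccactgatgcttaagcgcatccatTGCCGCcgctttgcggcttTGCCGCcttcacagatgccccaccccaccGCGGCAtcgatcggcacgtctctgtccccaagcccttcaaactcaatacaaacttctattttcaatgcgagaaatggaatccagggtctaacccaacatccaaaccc
Mest, chr6:30737800-30738049, plus strand: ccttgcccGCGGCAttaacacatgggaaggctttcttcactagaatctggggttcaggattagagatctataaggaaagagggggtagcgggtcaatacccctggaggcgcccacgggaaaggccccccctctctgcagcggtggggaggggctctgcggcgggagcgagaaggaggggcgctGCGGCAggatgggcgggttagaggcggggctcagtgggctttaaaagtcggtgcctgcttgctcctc
Both genes are paternally expressed. A match describes the letters and is no evidence of binding.

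The measured imprinted genes covered a wide range of levels in the prepubertal ovary. Per kilobase of merged GENCODE exons, and averaged over the 6 ovaries, the highest level was that of Gnas, at 84.3 CPM per kb. Gnas encodes the stimulatory G protein subunit that couples gonadotropin receptors to cyclic AMP, and its parental origin depends on the isoform. Nnat (neuronatin, a small membrane protein) followed at 60 CPM per kb, the zinc finger regulator Plagl1 at 40.8, the hydrolase-fold gene Mest at 26.2 and the retrotransposon-derived gene Peg10 at 21.7. All of these but Gnas are paternally expressed. Among maternally expressed genes the highest were Igf2r, the receptor that takes up and degrades IGF2, at 19.3 CPM per kb, Blcap at 18.2, the noncoding RNA H19 at 18 and Grb10 at 17.9. The growth factor gene Igf2 itself stood at 2.67 CPM per kb. The lowest levels per kilobase were those of the deubiquitinase gene Usp29 (0.122), Mirg (0.319), Airn (0.332) and Zdbf2 (0.579). The sources used here do not name the annotation the authors counted on, so these lengths may differ from theirs.

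**Figure D1:**
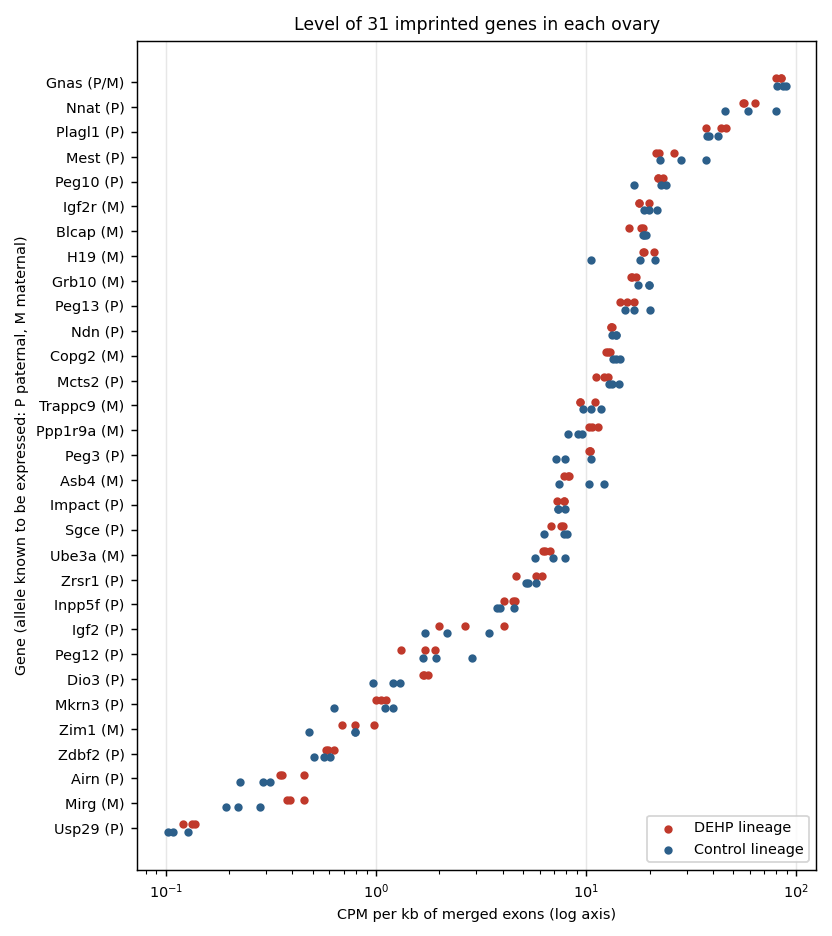
CPM per kb of merged exons (log axis) of the 31 imprinted genes in each of 3 DEHP-lineage ovaries (red) and 3 control-lineage ovaries (blue), ordered by their mean. Levels run from 0.122 CPM per kb for Usp29 to 84.3 for Gnas, and the lineages interleave for most genes.

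None of the 31 genes passed an adjusted p of 0.05 (0 of 31; limma, Benjamini-Hochberg over all genes), where 7 of all 16454 genes passed (0.0425%). The smallest adjusted p among them was 0.491. At an unadjusted p under 0.05 there were 4 genes, or 12.9%, against 8.78% of all genes. Mirg, Dio3 and Ppp1r9a were on the higher side, where 4.76% of all genes lay, and Grb10 was on the lower side, with 4.02% of all genes. The 3 ovaries of each lineage did not overlap for 8 genes, or 25.8%, against 22.9% of all genes. Of these 8, the 4 that were higher were Mirg, Dio3, Ppp1r9a and Airn (10.8% of all genes were higher without overlap), and the 4 that were lower were Grb10, Copg2, Mcts2 and Ndn (12.2%). The share without overlap was close to that of the table as a whole. Without DEHP-lineage replicate 2 there was 1 gene, Mirg, at an unadjusted p under 0.05, against 7.28% of all genes. With DEHP-lineage replicates 1 and 3 averaged there were 3, Mirg, Dio3 and Ppp1r9a, against 8.05% of all genes. Means were higher in the DEHP lineage for 17 genes and lower for 14, with a median log2 fold change of 0.02, against -0.01 over all genes, and the median of the imprinted genes was -0.032 without control-lineage replicate 3.

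**Figure D2:**
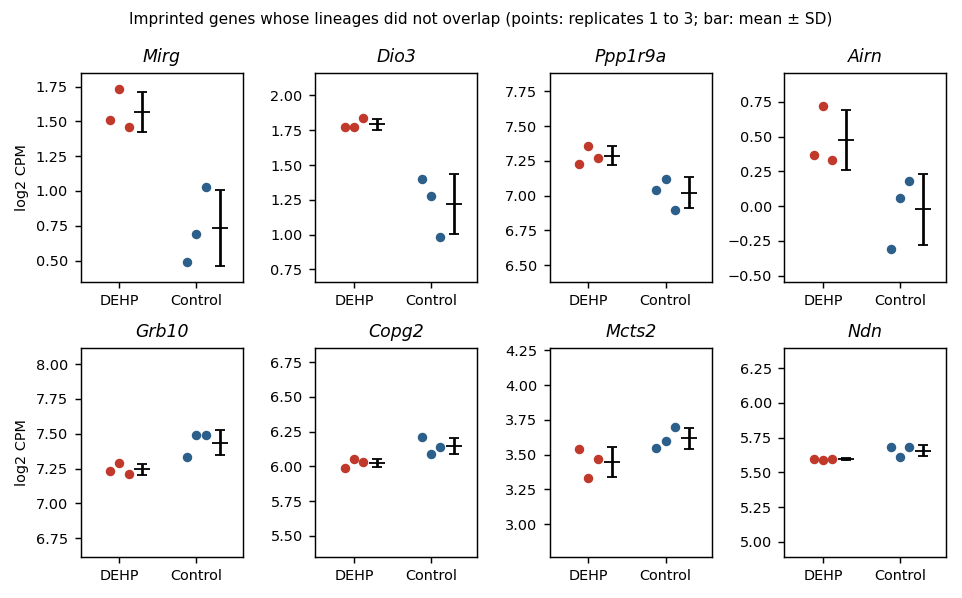
Log2 CPM of the 8 imprinted genes whose lineages did not overlap, in 3 DEHP-lineage ovaries (red) and 3 control-lineage ovaries (blue), with the mean and SD beside the points. Axes do not start at 0 and differ in position between panels. The gap is widest for Mirg (0.43 log2 units) and Dio3 (0.36), and 0.01 for Mcts2 and Ndn.

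In the Dlk1-Dio3 domain of chromosome 12, Mirg and Dio3 each had higher values in every DEHP-lineage ovary than in any control ovary. Mirg stood at 2.85, 3.31 and 2.75 CPM in DEHP-lineage replicates 1, 2 and 3, against 1.40, 1.61 and 2.04 CPM in control-lineage replicates 1, 2 and 3. The lowest DEHP-lineage ovary was thus above the highest control ovary, although all 6 values were low. The log2 fold change was 0.83 (SE 0.26, 95% interval 0.23 to 1.43), with a limma adjusted p of 0.491. Mirg is listed in the authors' deposited table with a log2 fold change of 0.82 and an adjusted p of 0.731. In the authors' own comparison the unadjusted p was 0.0227 for Mirg and 0.0239 for Ppp1r9a. It was above 0.05 for Dio3 (0.0655) and Grb10 (0.0582).

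Dio3, which encodes the deiodinase that inactivates thyroid hormones and is paternally expressed, lies in the same domain, at chr12:110279230-110281097. It stood at 3.42, 3.4 and 3.59 CPM in DEHP-lineage replicates 1, 2 and 3, against 2.64, 2.43 and 1.97 CPM in control-lineage replicates 1, 2 and 3. The DEHP-lineage ovaries lay close together and above every control ovary. In these adjusted values the SD was lower within the DEHP lineage for 69.6% of all genes. The log2 fold change was 0.57 (SE 0.22, interval 0.05 to 1.10; limma adjusted p 0.548). The log2 ratio of Mirg to Dio3 averaged -0.23 ± 0.17 in the DEHP lineage and -0.49 ± 0.49 in the control lineage (SD, n = 3 each), and the lineages overlapped in it. Other genes of the region were measured too. Begain, which lies beside Dlk1, had a log2 fold change of -0.06 with overlapping lineages. Dio3os, the noncoding RNA beside Dio3, is outside the lists and is named after its values were seen: its log2 fold change was 1.11 (limma adjusted p 0.417), and its lineages did not overlap.

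In the Peg10-Sgce domain of chromosome 6 the maternally expressed neighbours Ppp1r9a and Asb4 had differences of opposite sign, with overlapping lineages for Asb4. Ppp1r9a encodes neurabin, which binds actin filaments and targets protein phosphatase 1 to them. It stood at 150, 165 and 154 CPM in DEHP-lineage replicates 1, 2 and 3, against 132, 139 and 119 CPM in control-lineage replicates 1, 2 and 3, with no overlap. The log2 fold change was 0.27 (SE 0.08, interval 0.07 to 0.46), with a limma adjusted p of 0.491.

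Asb4, an adaptor of ubiquitin ligases, was at 32.2, 30.8 and 32.7 CPM in DEHP-lineage replicates 1, 2 and 3, against 40.4, 47.8 and 29 CPM in control-lineage replicates 1, 2 and 3. Control replicate 3 was the lowest of the 6 and the other controls the highest. The log2 fold change of Asb4 was -0.26 (interval -0.68 to 0.15; limma adjusted p 0.705), and its lineages overlapped. The ratio of Asb4 to Ppp1r9a did not overlap between lineages, as Ppp1r9a by itself did not. Of the gene pairs chosen for ratios, only this one and Airn to Igf2r did not overlap. Among single genes, 22.9% of the whole table did not overlap. On the log2 scale the ratio of Asb4 to Ppp1r9a was -2.22, -2.42 and -2.23 in DEHP-lineage replicates 1, 2 and 3. It was -1.71, -1.54 and -2.04 in control-lineage replicates 1, 2 and 3. Peg10 and Sgce (epsilon-sarcoglycan), the paternally expressed pair that starts from a shared promoter region, had log2 fold changes of 0.10 (interval -0.21 to 0.41) and 0.00 (-0.26 to 0.27). Peg10 was at 146, 147 and 154 CPM in DEHP-lineage replicates 1, 2 and 3, against 159, 151 and 112 CPM in control-lineage replicates 1, 2 and 3. Sgce was at 80.7, 72.3 and 82 CPM in DEHP-lineage replicates 1, 2 and 3, against 85.9, 82.7 and 66.9 CPM in control-lineage replicates 1, 2 and 3. Control replicate 3 was the lowest ovary for both and control replicate 1 the highest. Their log2 ratio averaged 0.93 ± 0.09 in the DEHP lineage and 0.84 ± 0.08 in the control lineage.

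Grb10, a maternally expressed adaptor that restrains insulin and insulin-like growth factor receptor signalling, had the lowest p among genes with lower values in the DEHP lineage. It stood at 150, 157 and 148 CPM in DEHP-lineage replicates 1, 2 and 3, against 161, 180 and 180 CPM in control-lineage replicates 1, 2 and 3. The lineages did not overlap, and control replicate 1 was the nearest to the DEHP lineage. The log2 fold change was -0.20 (SE 0.08, interval -0.38 to -0.01; limma adjusted p 0.555).

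The other genes of growth factor control did not separate the lineages. H19 averaged 47.8 ± 3.19 CPM in the DEHP lineage and 40.7 ± 13.5 CPM in the control lineage, where replicate 3 stood at 25.8 CPM and replicates 1 and 2 at 52.2 and 44.1. Igf2 was at 11.4, 23.1 and 15.2 CPM in DEHP-lineage replicates 1, 2 and 3, against 19.7, 12.4 and 9.73 CPM in control-lineage replicates 1, 2 and 3, the widest range over the 6 ovaries of any of these genes (1.25 log2 units). Of its exon bases, 62.8% are shared with Gm49394, a transcript of the same strand, so that its own level is uncertain. Igf2r was at 166, 186 and 166 CPM in DEHP-lineage replicates 1, 2 and 3, against 175, 201 and 186 CPM in control-lineage replicates 1, 2 and 3. It had a log2 fold change of -0.12 (interval -0.32 to 0.08), and Plagl1, a regulator of other imprinted genes, one of 0.10 (-0.15 to 0.35).

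Airn, the noncoding RNA whose transcription silences the paternal copy of Igf2r, was the remaining gene with higher values in all DEHP-lineage ovaries. It was at 1.29, 1.64 and 1.26 CPM in DEHP-lineage replicates 1, 2 and 3, against 0.809, 1.04 and 1.13 CPM in control-lineage replicates 1, 2 and 3. The gap between the lineages was 0.15 log2 units, and the log2 fold change was 0.49 (SE 0.30, interval -0.21 to 1.19; limma adjusted p 0.678). The log2 ratio of Airn to Igf2r averaged -6.96 ± 0.12 in the DEHP lineage and -7.57 ± 0.20 in the control lineage and did not overlap. It largely repeats the values of Airn, since Igf2r ranged over only 0.28 log2 units. The genes lie on opposite strands, and the sources used here do not say whether the counting used strand.

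**Figure D3:**
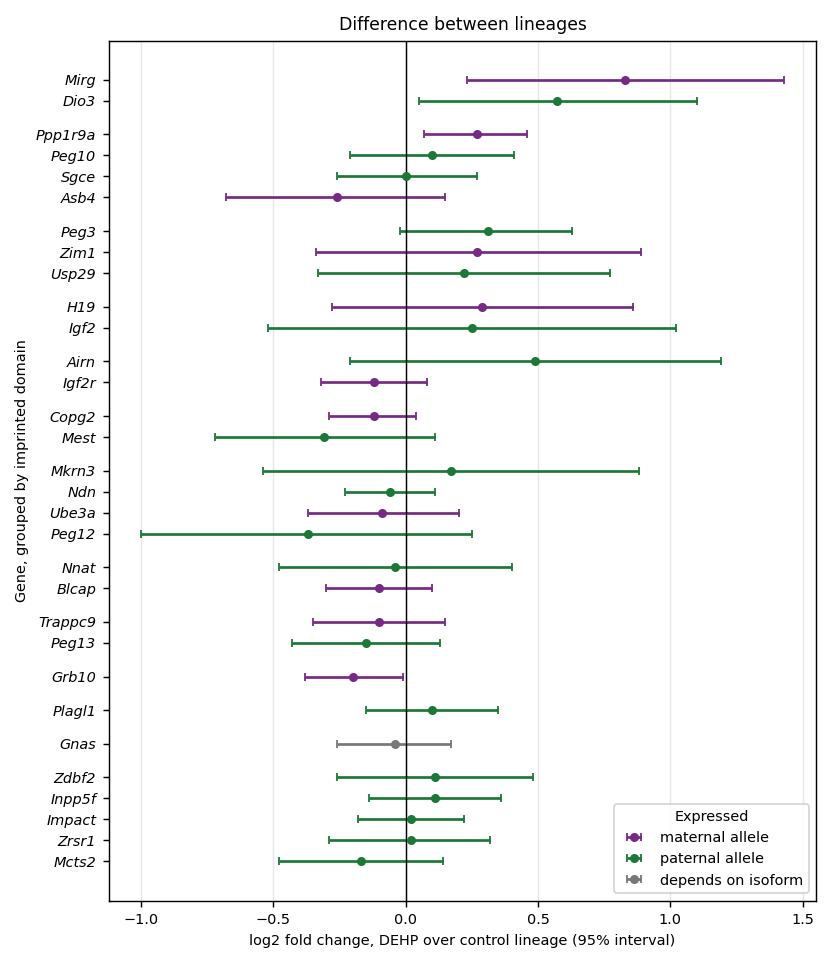
Log2 fold change of each imprinted gene, DEHP over control lineage, with its 95% interval from limma, grouped by domain and coloured by the allele known to be expressed. The intervals of Mirg, Dio3 and Ppp1r9a lie above 0 and that of Grb10 below it, before any adjustment over the table.

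In the Peg3 domain of chromosome 7, Peg3, Usp29 and Zim1 had higher means in the DEHP lineage. Peg3, a paternally expressed zinc finger gene, was at 139, 139 and 137 CPM in DEHP-lineage replicates 1, 2 and 3, against 105, 140 and 95.3 CPM in control-lineage replicates 1, 2 and 3. Control replicate 2 was the highest of the 6 ovaries, so the lineages overlapped, and the log2 fold change of 0.31 had an interval of -0.02 to 0.63. Usp29, which starts back to back with Peg3, had a log2 fold change of 0.22 (interval -0.33 to 0.77), and the maternally expressed zinc finger gene Zim1 one of 0.27 (-0.34 to 0.89). Without control replicate 3 the log2 fold change was 0.19 for Peg3 and 0.029 for Zim1. Of the exon bases of Usp29, 14.3% lie opposite exons of Zim3.

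Mest and Copg2, which overlap tail to tail on chromosome 6, both had lower means. Copg2, a coat protein subunit of Golgi vesicles that is maternally expressed, was at 63.7, 66.3 and 65.2 CPM in DEHP-lineage replicates 1, 2 and 3, against 74.0, 68.3 and 70.7 CPM in control-lineage replicates 1, 2 and 3. The gap between the lineages was 0.04 log2 units. Mest was at 84.2, 103 and 87.7 CPM in DEHP-lineage replicates 1, 2 and 3, against 111, 146 and 88.3 CPM in control-lineage replicates 1, 2 and 3, and its log2 fold change was -0.31 (interval -0.72 to 0.11). Exons of the other gene, on the opposite strand, cover 17.8% of the exon bases of Copg2 and 23.1% of those of Mest.

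Of the Prader-Willi and Angelman region on chromosome 7, Ndn (necdin, a MAGE family protein), the ubiquitin ligase genes Mkrn3 and Ube3a, and Peg12, a Frat family member, were measured. Ndn had the narrowest range over the 6 ovaries, 0.09 log2 units, at 48.5, 48.2 and 48.7 CPM in DEHP-lineage replicates 1, 2 and 3, against 51.1, 48.9 and 51.3 CPM in control-lineage replicates 1, 2 and 3. Its lineages did not overlap, by 0.01 log2 units, and its log2 fold change was -0.06 (interval -0.23 to 0.11). Mkrn3 was at 2.56, 2.70 and 2.85 CPM in DEHP-lineage replicates 1, 2 and 3, against 3.06, 2.80 and 1.61 CPM in control-lineage replicates 1, 2 and 3. Peg12 was at 5.04, 3.47 and 4.50 CPM in DEHP-lineage replicates 1, 2 and 3, against 5.09, 4.43 and 7.58 CPM in control-lineage replicates 1, 2 and 3. Control replicate 3 was thus the lowest of the 6 ovaries for Mkrn3 and the highest for Peg12. Ube3a, maternally expressed in neurons, was at 139, 131 and 129 CPM in DEHP-lineage replicates 1, 2 and 3, against 118, 164 and 144 CPM in control-lineage replicates 1, 2 and 3. It had a log2 fold change of -0.09 (interval -0.37 to 0.20), and 8.74% of its exon bases lie opposite those of Snhg14.

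For genes nested in the introns of others, the ratio to the host overlapped between the lineages in each of 4 pairs. Mcts2, a retrogene for a translation factor, lies within H13, and the log2 ratio of the pair averaged -3.52 ± 0.07 in the DEHP lineage and -3.50 ± 0.07 in the control lineage (SD, n = 3 each). Mcts2 itself was at 11.6, 10.1 and 11.1 CPM in DEHP-lineage replicates 1, 2 and 3, against 11.7, 12.1 and 13 CPM in control-lineage replicates 1, 2 and 3, a gap of 0.01 log2 units, and its log2 fold change was -0.17 (interval -0.48 to 0.14). For Nnat and its host Blcap the log2 ratio averaged 1.00 ± 0.10 in the DEHP lineage and 0.93 ± 0.43 in the control lineage, and for the noncoding RNA Peg13 and its host Trappc9 it averaged -0.09 ± 0.24 in the DEHP lineage and -0.04 ± 0.21 in the control lineage. For Zrsr1, a retrogene for a splicing factor, and its host Commd1 it averaged -0.58 ± 0.14 in the DEHP lineage and -0.83 ± 0.12 in the control lineage. Of the exon bases of Zrsr1, 9.17% lie opposite those of Commd1.

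For the remaining genes, log2 fold changes were -0.04 for Gnas (interval -0.26 to 0.17), 0.02 for Impact (-0.18 to 0.22), a regulator of the amino acid starvation response, 0.11 for the phosphatase gene Inpp5f (-0.14 to 0.36) and 0.11 for Zdbf2 (-0.26 to 0.48). Over the 31 genes, 19 intervals lay within 0.5 log2 units of 0 on both sides, and 5 reached 1 log2 unit in size. These intervals rest on 3 residual degrees of freedom, or 7.324 in total with those that limma draws from all genes. They also rest on values already adjusted by the authors.

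By parental allele, 13 of the 19 paternally expressed genes had higher means in the DEHP lineage, with a median log2 fold change of 0.10, and 4 of the 11 maternally expressed genes did, with a median of -0.10. Over all genes, 46.9% had higher means. Neither set had a gene past the adjusted threshold (0 of 19 and 0 of 11), and the difference between the sets was not tested. The sets follow the textbook assignments, and the allele active in these ovaries was not measured. Without control replicate 3, 9 of the 19 paternally expressed genes had higher means, with a median of -0.0029, and 3 of the 11 maternally expressed genes did, with a median of -0.068. Leaving out each other ovary gave 10 to 13 paternally expressed genes with higher means and medians of 0.034 to 0.08. The summed CPM of paternally expressed genes was 1200, 1120 and 1180 in DEHP-lineage replicates 1, 2 and 3, against 1120, 1240 and 1070 in control-lineage replicates 1, 2 and 3. That of maternally expressed genes was 886, 929 and 883 in DEHP-lineage replicates 1, 2 and 3, against 895, 993 and 910 in control-lineage replicates 1, 2 and 3. Both sums overlapped between the lineages.

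Single ovaries departed from the rest across several domains. Control replicate 3 had the lowest value of the 6 ovaries for 11 of the 31 genes (35.5%), against 21.9% of all genes. These were H19, Igf2, Peg3, Zim1, Mkrn3, Dio3, Peg10, Sgce, Ppp1r9a, Asb4 and Inpp5f. They make up 7 of the 19 paternally expressed genes and 4 of the 11 maternally expressed ones, which are similar shares. The same ovary had the highest value for 6 of the 31 genes, Nnat, Peg12, Ndn, Grb10, Mcts2 and Trappc9, and for 22.0% of all genes. DEHP replicate 2 had the lowest value for 9 genes (29.0%, against 23.6% of all genes). It had the highest for 6, among them Igf2, Mirg and Ppp1r9a, and for 20.8% of all genes. As deviations from each gene's 6-ovary mean, the 31 genes had a median of -0.08 in control replicate 3, while those of the other ovaries lay between -0.04 and 0.05.

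**Figure D4:**
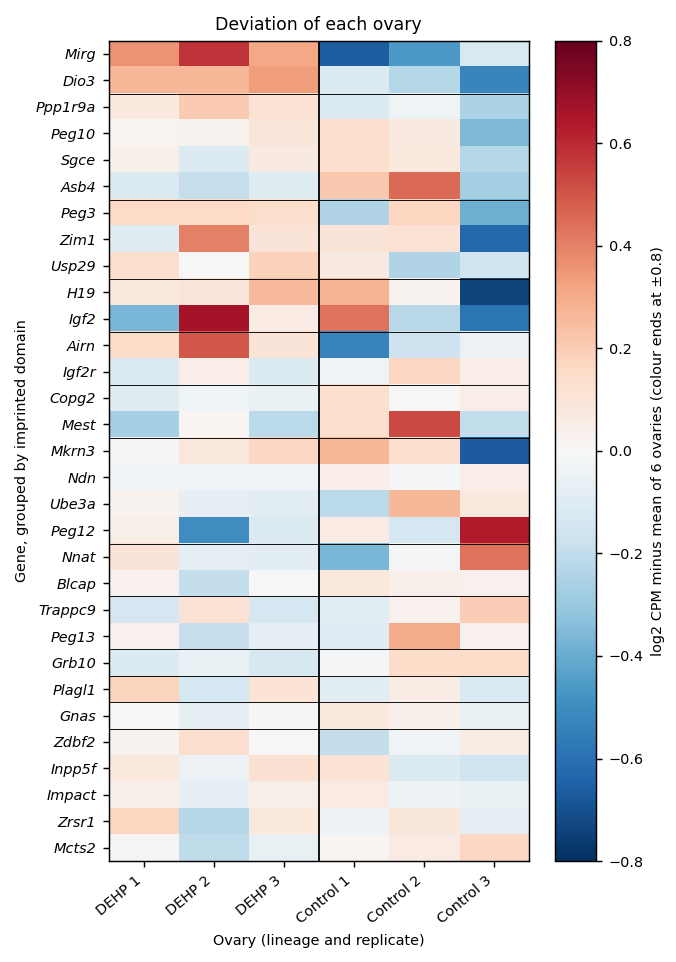
Log2 CPM of each imprinted gene in each ovary minus its mean over the 6 ovaries (colour), with genes in rows grouped by domain and DEHP-lineage ovaries left of control-lineage ovaries. Mirg and Dio3 are red in the 3 DEHP-lineage columns, and the column of control replicate 3 is the lowest of the 6 for 11 of the 31 genes.

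Markers of several ovarian cell types varied between the same ovaries. Oocyte markers had lower means in the DEHP lineage for 13 of 14 genes (median log2 fold change -0.23), smooth muscle and pericyte markers for 9 of 10 (-0.28) and theca and interstitial markers for 9 of 10 (-0.28), with 0 past the adjusted threshold in each list and 4, 4 and 1 at an unadjusted p under 0.05 by limma. Their summed levels were 1730 to 1970 CPM in the DEHP lineage and 2140 to 2390 CPM in the control lineage for smooth muscle, and 2920 to 3030 CPM in the DEHP lineage and 3100 to 3810 CPM in the control lineage for theca markers. Adipocyte markers, which stand for fat attached to the ovary, summed to between 54.5 and 544 CPM in the DEHP lineage and between 62.5 and 233 CPM in the control lineage. Relative to the mean of the 6 ovaries their median was -1.38, 2.28 and -0.17 in DEHP-lineage replicates 1, 2 and 3, and 1.09, -0.25 and -1.73 in control-lineage replicates 1, 2 and 3. Granulosa markers had higher means for 5 of 12 and summed to 12600 to 13800 CPM in the DEHP lineage and 11300 to 12900 CPM in the control lineage. Stromal fibroblast markers (5 of 10 higher) summed to 4460 to 4640 CPM in the DEHP lineage and 4740 to 5420 CPM in the control lineage, and endothelial markers (2 of 8) to 366 to 426 and, in the control lineage, 418 to 459 CPM. Surface epithelium and oviduct markers (5 of 8) summed to 46.2 to 55.2 CPM in the DEHP lineage and 38.3 to 55.7 CPM in the control lineage. Nerve and glia markers (2 of the 5 measured) summed to 191 to 204 CPM in the DEHP lineage and 172 to 211 CPM in the control lineage, and macrophage markers (4 of 8) to 83.7 to 102 and, in the control lineage, 46.5 to 125 CPM. In each of these lists and in the adipocyte list 0 passed the adjusted threshold, and between 0 and 2 had an unadjusted p under 0.05 by limma. The part of cell type make-up in the values of the imprinted genes was not tested, and in whole ovaries fewer cells of a type and less RNA per cell cannot be told apart.

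Of 39 other imprinted genes, listed for comparison and outside the Kcnq1 domain as well, 28 were measured, and 0 passed the adjusted threshold. Means were higher in the DEHP lineage for 15 and lower for 13, with a median log2 fold change of 0.01, and 3 had an unadjusted p under 0.05 (10.7%, against 8.78% of all genes). Phactr2, a phosphatase and actin regulator next to Plagl1, averaged 179 ± 4.91 CPM in the DEHP lineage and 234 ± 23.5 CPM in the control lineage, a log2 fold change of -0.38 (SE 0.09; limma adjusted p 0.382). Commd1, the host of Zrsr1, averaged 36.7 ± 1.92 CPM in the DEHP lineage and 43.2 ± 1.80 CPM in the control lineage (-0.24, adjusted p 0.513). The receptor tyrosine kinase gene Axl was at 0.21 (adjusted p 0.565) and H13, the host of Mcts2, at -0.15 (adjusted p 0.58).

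Of 29 genes that set or keep imprints, 26 were measured, and Zfp57, Ctcfl and Zfp42 were not analysed here. None passed the adjusted threshold (0 of 26), and 0 had an unadjusted p under 0.05 by limma, against 8.78% of all genes. Means were lower in the DEHP lineage for 21 of them, with a median log2 fold change of -0.07. Over all genes, 46.9% had higher means. The smallest p values were those of Nlrp2, an oocyte gene needed for imprints (-0.34, limma adjusted p 0.611), the histone demethylase gene Kdm1b (-0.21, adjusted p 0.669), Dnmt3l, which guides methylation in oocytes (-0.33, adjusted p 0.675), and the histone methyltransferase gene Setdb1 (0.10, adjusted p 0.727). Dnmt3l averaged 6.0 ± 0.276 CPM in the DEHP lineage and 7.65 ± 1.59 CPM in the control lineage, and Nlrp2 averaged 20.4 ± 3.51 CPM in the DEHP lineage and 25.7 ± 3.2 CPM in the control lineage, both with overlap. Several of these genes are expressed in oocytes, and the median of the oocyte markers was -0.23. The part of oocyte content in the values of this list was not tested.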

How the data were processed

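Whole ovaries were sequenced as strand-marked mRNA libraries read from one end, per the labels' protocols. The submitters' processing notes list edgeR 3.20.5 in R 3.4.3, Subread 1.5.2 with featureCounts, and STAR 2.5.3a, and name build GRCm38.p6. No source used here gives their settings, the prior count or a filter on low values. The authors deposited log2 CPM per ovary, with a surrogate variable removed, and their own p-values and signed fold ratios, of which only those credited to them are printed. The other values were computed with limma 3.58.1 in R 4.3.3 on all 16454 genes (mean-variance trend, two-sided, no covariate, Benjamini-Hochberg over all genes, threshold 0.05). Deviations from group means filled 3 of 4 directions, so 3 residual degrees of freedom were used. CPM and their SDs were taken from 2 to the power of the deposited log2 values. The fit was tested on simulated data. The genes and lists were chosen with earlier results of these data known. The rule for values per ovary was an unadjusted p under 0.05, or no overlap, and the other listed genes of such a domain. H19, Igf2 and Peg3 fall outside it and were added after their values were seen, and of the other lists the 4 smallest p values are named. Positions and promoters are from RefSeq (GRCm38.p6), and exon lengths and overlaps from GENCODE M21. Depth is unknown, so no counting intervals are given.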

Additional observations from a re-analysis of the deposited data

How the results depend on the processing

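Over 14 alternatives no imprinted gene passed the adjusted threshold (0 in each), and the smallest adjusted p was 0.17, with 4 residual degrees of freedom. The number of all genes called was 7 and changed to 20 with 4 degrees of freedom, 83 with the replicate number as a block, 3 after quantile normalization and 1 without the mean-variance trend. Leaving out 1 ovary gave between 3 and 270 called genes. The counts were 270, 43 and 183 without DEHP replicates 1, 2 and 3. Without control replicates 1, 2 and 3 they were 27, 3 and 5. In these fits and with the block, 1 degree of freedom was taken off without checking that a direction was still missing. Total degrees of freedom were 7.324 in the main fit, 32910 without DEHP replicate 1 or 3, and 16450 with the block. Gene variances in the latter fits came almost wholly from the trend, so the counts of 270, 183 and 83 are not comparable with 7. The count of imprinted genes at an unadjusted p under 0.05 was 4 (8.78% of all genes), and 2 without the trend (8.42% of all genes). It was 0 with the replicate block (2.72% of all genes), under the same limit. With 1 ovary left out it lay between 1 and 4, against 5.01% to 8.23% of all genes. Without DEHP replicate 2 there was 1 (Mirg), against 7.28% of all genes. The median log2 fold change of the imprinted genes was 0.02. It lay between -0.032 (without control replicate 3) and 0.055 (without DEHP replicate 2) with 1 ovary left out. Same-numbered ovaries had deviation correlations of -0.327, -0.003 and -0.198 across genes. Those of differently numbered ovaries ran from -0.211 to 0.444. These deviations lack the direction removed by the authors, so they cannot decide whether the numbers pair the ovaries.

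Leaving out each ovary in turn gave log2 fold changes of 0.71 to 0.98 for Mirg, 0.45 to 0.66 for Dio3, 0.20 to 0.31 for Ppp1r9a and -0.25 to -0.17 for Grb10. Unadjusted p values under 0.05 were left in 3, 0, 4 and 1 of the 6 fits. In the fits without DEHP replicate 1 or 3 the variances came almost wholly from the trend. With log2(CPM + 1) the value of Mirg was 0.57. Without control replicate 3, H19 stood at -0.01, Zim1 at 0.029 and Peg3 at 0.19, and Igf2 stood at -0.02 without DEHP replicate 2. In all, 9 of the 31 genes changed sign at least once, and none of these exceeded 0.29 in size before. The cause of these changes was not tested. Airn was not among the 30 genes kept at a mean of at least 1 log2 CPM. Depth is unknown, so the counting error of the lowest genes cannot be given.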
